A study of Drosophila melanogaster with 14 samples.

Results

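Muscle actins and proteins that bind or organise actin were followed through RNA interference (RNAi) against Polycomb Repressive Complex 1 (PRC1) in BG3, or ML-DmBG3-c2, a line of Drosophila cells from the larval central nervous system. The genes are Act57B, Act87E, Act88F, cher, zormin and rols, chosen by their symbols, and all 6 have a row among the 7624 genes of the deposited table. Ribosome-depleted total RNA was sequenced from 14 libraries, of which 3 are labelled Ph, 3 Sce, 2 Pc and 6 Mock. Cells of the labelled groups received double-stranded RNA against Polyhomeotic (Ph), Sex combs extra (Sce) or Polycomb (Pc), each a subunit of PRC1, usually as 2 fragments per target, and Mock cells had the mock treatment. All groups share 1 cell line and its serum and insulin medium, and the labels give no genotype, age or time after treatment. The labels number the replicates without saying whether they were separate cultures, so the p-values measure a spread that may be technical.

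The table gives the mean signal of each group and, for each labelled group against Mock, a ratio, a p-value and a q-value. A gene is said to have risen or fallen where the authors' q-value was under 0.05. Values per library were not used here, so no spread stands beside a mean, and the depth is unknown. RNA of the targeted genes stood above Mock in the group labelled for each. In the authors' deposited table ph-d rose 8.09-fold (q = 0.028) and ph-p rose 8.64-fold (q = 0.017) with Ph. Pc stood at 21.5 times Mock in its group (q = 0.13) and Sce at 27.0 times Mock in its own (q = 0.198), neither passing. The signal thus goes against the labelled depletion, and the table does not separate reads of the double-stranded RNA from gene reads. For both reasons the groups are called the libraries labelled Ph, Sce and Pc. Since even the 27.0-fold ratio of Sce did not pass, a gene without a call with Sce may still differ from Mock. The table also holds columns named nt.gene, for Ph and Sce against Mock, whose measurement no label or header describes.

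PRC1 is a chromatin complex that keeps developmental genes silent in cells that do not use them, and it is also found at active genes. Actin exists as cytoplasmic forms, present in most cells, and as muscle forms that build the thin filaments of the sarcomere. Filamins and spectraplakins link actin filaments to each other and to membranes or microtubules, titin-related proteins hold the sarcomere together, and fusion adaptors carry the signal from adhesion receptors to the actin cytoskeleton when myoblasts fuse.

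Among the 6 genes, the crosslinker and sarcomere genes stood high with Ph and the muscle actins did not move together. In the libraries labelled Ph, cher and zormin rose and 0 of the 6 fell, where 3.52% of all genes rose and 0.367% fell. In the libraries labelled Pc, cher and rols rose and 0 fell, where 3.04% of all genes rose and 0.144% fell. In the libraries labelled Sce, 0 of the 6 passed by the authors' q-value, where 0.236% of all genes rose and 0.0131% fell. The unadjusted p-value was under 0.05 there for 2 genes, cher and rols, both above Mock, where 11.6% of all genes were under it in either direction. The median log2 ratio of the 6 genes was 1.81 (Ph), -0.43 (Sce) and 1.15 (Pc), beside medians over all genes of 0.07, 0.06 and 0.05. Act57B, a gene listed through its Ph and Pc means, is 1 of the 2 middle values in each, so nothing is read from these medians. The 3 comparisons share the same Mock libraries, so their values stand side by side and are not independent of each other.

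**Figure D1:**
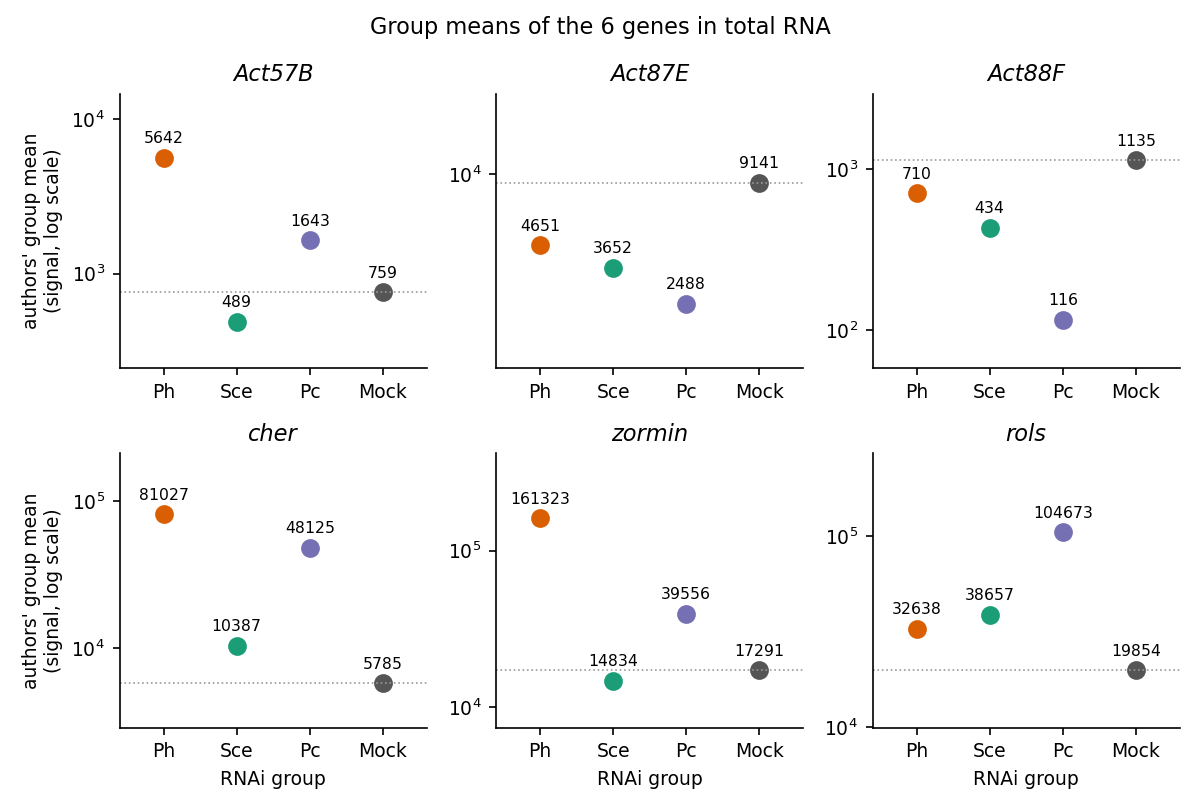
Authors' group mean of each gene in total RNA (vertical axis, signal on a log scale) in the libraries labelled Ph, Sce and Pc and in Mock (horizontal axis). Each point is 1 group mean, printed above it, and the dotted line is the Mock mean; cher and zormin are highest with Ph, rols is highest with Pc, and Act87E and Act88F are highest in Mock.

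The gene cher encodes filamin, which crosslinks actin filaments and is known from the ring canals of the fly germline. Its mean signal was 81027 in the libraries labelled Ph, 10387 in those labelled Sce and 48125 in those labelled Pc, against 5785 in Mock. All 3 labelled groups stood above Mock, and Ph and Pc lay well above Sce. In the authors' deposited table cher rose 14.0-fold with Ph (q = 0.028) and 8.32-fold with Pc (q = 0.034), while its ratio with Sce was 1.80 (q = 0.243). By ratio it stood at place 132 of 7624 with Ph, place 349 with Sce and place 107 with Pc, counted from the highest. The mean with Ph was 7.80 times that with Sce and 1.68 times that with Pc, differences for which the table gives no test.

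The gene zormin encodes a titin-related protein with immunoglobulin domains that lies at the Z-disc and M-line of muscle. Its mean signal was 161323 in the libraries labelled Ph, 14834 in those labelled Sce and 39556 in those labelled Pc, against 17291 in Mock. The Ph mean stood apart, the Pc mean was above Mock and the Sce mean was a little below it. In the authors' deposited table zormin rose 9.33-fold with Ph (q = 0.004), and its ratios were 0.858 with Sce (q = 0.484) and 2.29 with Pc (q = 0.115). The mean with Ph was 10.9 times that with Sce and 4.08 times that with Pc, again without a test. The highest of a gene's 4 group means was never under 798.3 in the table, and the means of zormin and cher lay above that level in all 4 groups.

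The gene rols (rolling pebbles, also antisocial) encodes an adaptor that links the adhesion receptor of muscle founder cells to actin regulators during myoblast fusion. Its mean signal was 32638 in the libraries labelled Ph, 38657 in those labelled Sce and 104673 in those labelled Pc, against 19854 in Mock. Here Pc was the highest group, and Ph and Sce were close to each other, both above Mock. In the authors' deposited table rols rose 5.27-fold with Pc (q = 0.003), and its ratios were 1.64 with Ph (q = 0.294) and 1.95 with Sce (q = 0.209). The mean with Pc was 3.21 times that with Ph and 2.71 times that with Sce. The order of groups for rols, Pc above Sce above Ph above Mock, thus differs from that of cher, Ph above Pc above Sce above Mock. Neighbouring groups in these orders cannot be called different, since no spread per library stands behind them.

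Act57B, an actin of larval body wall muscle, stood above Mock with Ph and Pc and below it with Sce. Its mean signal was 5642 in the libraries labelled Ph, 489 in those labelled Sce and 1643 in those labelled Pc, against 759 in Mock. Per the authors' deposited table its ratios were 7.43 with Ph (q = 0.207), 0.644 with Sce (q = 0.496) and 2.17 with Pc (q = 0.374), and none passed. The ratio with Ph was at place 189 of 7624 from the highest. With means under 798.3, the smallest highest group mean of any listed gene, in Sce and Mock, Act57B is listed through the libraries labelled Ph and Pc, and its ratios are conditioned on being high there.

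Act87E, another actin of larval and adult muscle, and Act88F, the actin of the indirect flight muscle, stood below Mock in each labelled group. The mean signal of Act87E was 4651 (Ph), 3652 (Sce) and 2488 (Pc), against 9141 in Mock. The authors' deposited table gives it ratios of 0.509 with Ph (q = 0.253), 0.4 with Sce (q = 0.285) and 0.272 with Pc (q = 0.304). The mean signal of Act88F was 710 (Ph), 434 (Sce) and 116 (Pc), against 1135 in Mock. The authors' deposited table gives it ratios of 0.626 with Ph (q = 0.449), 0.382 with Sce (q = 0.395) and 0.102 with Pc (q = 0.419). For both genes the order was Mock, Ph, Sce, Pc from high to low, and neither gene passed in any comparison. Counted from the lowest ratio with Pc, Act88F stood at place 22 and Act87E at place 100 of 7624, so a small ratio came here with a large q-value. The highest mean of Act88F, in Mock, was 1.42 times the 798.3 that the highest group mean of every listed gene reaches, and its other means lay under it, so its place in the table rests on Mock and its ratios are conditioned on being high there. Actin genes are close copies of each other in their coding sequence, and how reads that match several of them were counted is not stated, so the values of single actin genes are uncertain.

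**Figure D2:**
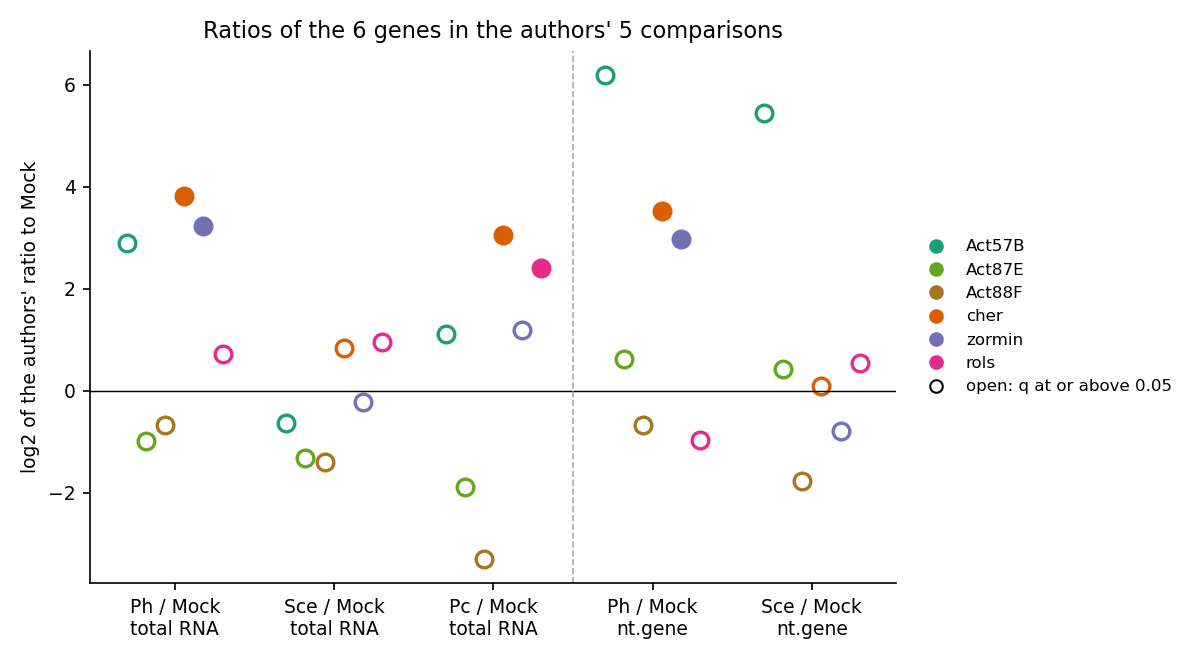
Log2 of the authors' ratio to Mock (vertical axis) for the 6 genes in the 3 total RNA comparisons and the 2 comparisons marked nt.gene (horizontal axis). Filled points passed q under 0.05 and open points did not; cher and zormin are filled for Ph in both sets of columns, cher and rols are filled for Pc, and no point is filled for Sce.

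The nt.gene columns for Ph against Mock gave the same calls among the 6 genes as total RNA, and no others. The labels do not say which libraries lie behind the nt.gene columns. There cher and zormin rose, where 1.69% of all genes rose and 0.787% fell. The authors' deposited table gives nt.gene ratios of 11.5 for cher (q = 0.017) and 7.82 for zormin (q = 0.000 at 3 decimals). The corresponding ratios in total RNA were 14.0 and 9.33. On the log2 scale total RNA exceeded nt.gene by 0.28 for cher and 0.26 for zormin, inside the range from -1.40 to 1.15 that holds the 5th to 95th percentile of this gap over 7623 genes. With Sce, 0 of the 6 passed by the authors' q-value in the nt.gene columns, where 0.0656% of all genes rose and 0.0525% fell. The unadjusted p-value was under 0.05 for zormin (lower) and rols (higher), where 9.9% of all genes were under it in either direction. The ratios there were 1.07 for cher (q = 0.743) and 0.576 for zormin (q = 0.295) in the authors' deposited table. Both sets of columns thus hold no call for cher or zormin with Sce.

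For rols the sets of columns pointed opposite ways with Ph. Its ratio in the authors' deposited table was 0.511 in the nt.gene columns (q = 0.075) and 1.64 in total RNA (q = 0.294), neither passing. The gap of 1.69 on the log2 scale was reached or exceeded by 212 of 7623 genes. With Sce its ratios were 1.45 (nt.gene, q = 0.377) and 1.95 (total RNA, q = 0.209) in the authors' deposited table, on the same side of Mock. Pc has no nt.gene columns in the table, so the call of rols with Pc stands in total RNA alone.

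Act87E also changed sides of Mock between the sets of columns, while Act88F did not. Act87E had nt.gene ratios of 1.54 (Ph, q = 0.38) and 1.35 (Sce, q = 0.654) in the authors' deposited table, above Mock, where its total RNA ratios of 0.509 and 0.4 were below it. The gap was -1.59 on the log2 scale with Ph and -1.75 with Sce, and 280 and 144 of 7623 genes had a gap at or below these. Act88F had nt.gene ratios of 0.626 (Ph, q = 0.509) and 0.296 (Sce, q = 0.559) in the authors' deposited table, on the side of Mock that its total RNA ratios take. For Act57B the nt.gene ratios in the authors' deposited table were 73.0 (Ph, q = 0.446) and 43.5 (Sce, q = 0.663). These ratios are at places 13 and 2 from the highest, but their q-values are large and the means behind them were not used here, so no fold is read from them. No test of the difference between the sets of columns was made, because the labels describe none of the libraries behind nt.gene.

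**Figure D3:**
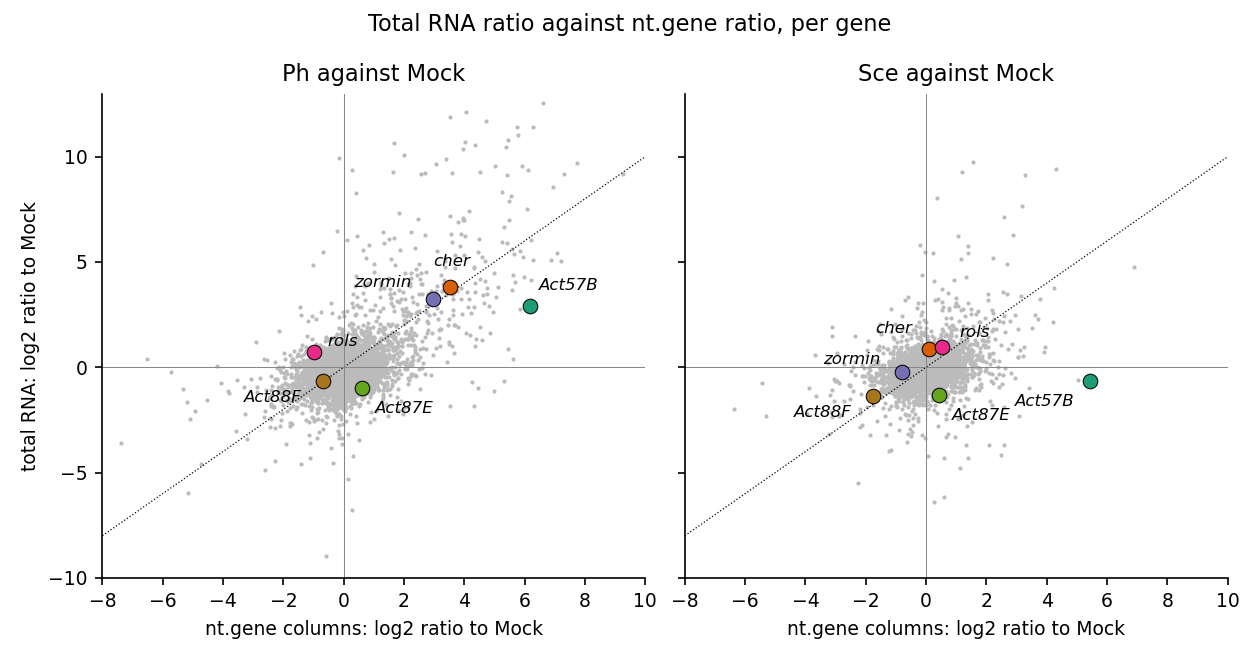
Log2 ratio to Mock in the nt.gene columns (horizontal axis) against that in total RNA (vertical axis) for the comparisons of Ph (left) and Sce (right) with Mock. Grey points are all genes with a ratio above 0, coloured points are the 6 genes, and the dotted line marks equal ratios. cher and zormin lie close to the line with Ph, rols lies above it, and Act57B and Act87E lie below it in both panels.

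The actin genes among the 6 are short and the other 3 are long. Every call among the 6 fell on the 3 long genes, and none on the short actins. With Ph the short Act57B had a ratio of 7.43 and the long rols 1.64, neither passing, in the authors' deposited table. That ratio of Act57B is conditioned on being high with Ph. The part of length in these calls was not tested. In Ensembl release 115, used for names, lengths and neighbours, the exonic length is 1724 bases for Act57B, 1989 for Act87E and 1595 for Act88F, against 9428 for cher, 12085 for zormin and 7556 for rols. The table's ratios moved with this length. As a description across genes of the same libraries, which are no replicates, Spearman's rank correlation between exonic length and log2 ratio was 0.386 (Ph), 0.375 (Sce) and 0.316 (Pc) over 7471 genes. The 3 long genes belong to the longest of 10 equal length classes, in which 8.42% of 748 genes passed with Ph, 0.668% with Sce and 6.02% with Pc in either direction, beside 3.88%, 0.249% and 3.19% of all genes. The median log2 ratio of that class was 0.20 (Ph), 0.24 (Sce) and 0.25 (Pc). Set against it, cher remained higher by 3.61 (Ph), 0.60 (Sce) and 2.81 (Pc) on the log2 scale. The log2 ratio of zormin lay 3.03 above that median with Ph and 0.46 below it with Sce (-0.46), and that of rols lay 2.15 above it with Pc. Within the longest class cher was at place 24 and zormin at place 28 by ratio with Ph, and cher was at place 19 and rols at place 29 with Pc.

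**Figure D4:**
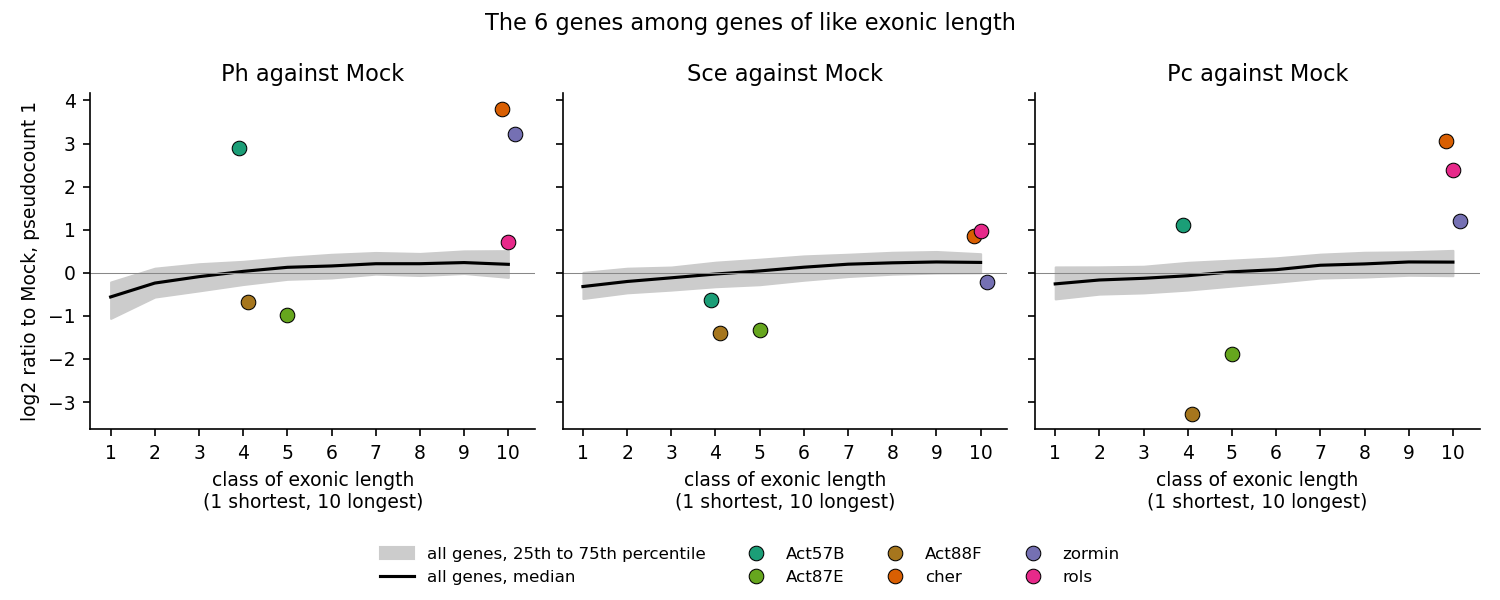
Log2 ratio to Mock with a pseudocount of 1 (vertical axis) by class of exonic length, from 1 (shortest) to 10 (longest), (horizontal axis) for the libraries labelled Ph, Sce and Pc. The black line is the median and the grey band the 25th to 75th percentile of all genes, coloured points are the 6 genes; cher and zormin stand far above the band of the longest class with Ph, and cher and rols do so with Pc.

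The genes next to the 6 were examined for their own values. The gene beside zormin on chromosome arm 3L is sls, which encodes the larger titin-related proteins of the fly sarcomere. The mean signal of sls was 113251 (Ph), 14755 (Sce) and 25288 (Pc), against 15469 in Mock, the order of groups being that of zormin with Sce just under Mock in both. Per the authors' deposited table its ratios were 7.32 (Ph, q = 0.09), 0.954 (Sce, q = 0.595) and 1.64 (Pc, q = 0.437), so sls did not pass. In the nt.gene columns the ratio of sls with Ph was 1.41 (q = 0.295) where that of zormin was 7.82 (q = 0.000), in the authors' deposited table. On the other side of zormin, CG15822 had a ratio of 0.325 with Ph (q = 0.229), 0.399 with Sce (q = 0.329) and 1.67 with Pc (q = 0.483) in the authors' deposited table. Of 4 protein-coding genes that overlap cher on the opposite strand, the centromere protein gene cal1 is the 1 with a row, and the authors' deposited table gives it 0.997 (Ph), 1.05 (Sce) and 0.985 (Pc) of Mock. Whether counting used strand is not stated, and the other overlapping genes were not analysed here. The gene next to cher with a row, GckIII, stood above Mock in all 3 groups as cher did, at 1.67 (Ph, q = 0.18), 1.48 (Sce, q = 0.267) and 1.82 (Pc, q = 0.129) times Mock in the authors' deposited table, none passing. Beside rols, Sema-5c stood at 0.592 of Mock with Ph (q = 0.224), 0.631 with Sce (q = 0.324) and 0.558 with Pc (q = 0.336) in the authors' deposited table, below Mock where rols was above it. On the other side of rols, CG6928 stood at 1.03 (Ph), 0.853 (Sce) and 1.21 (Pc) of Mock, per the authors' deposited table. The neighbour of Act87E with a row, yrt, stood at 1.19 to 1.25 times Mock, per the authors' deposited table. That of Act88F, CG14869, had ratios of 1.28 (Ph), 2.37 (Sce, q = 0.221) and 1.31 (Pc) in the authors' deposited table, above Mock where Act88F was below it. For Act57B 0 neighbours with a row were found.

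Other actins were compared in the same table. The cytoplasmic actin Act5C had a mean signal of 5354537 (Ph), 4036975 (Sce) and 4449847 (Pc), against 4028012 in Mock, and did not pass (q = 0.193, 0.614 and 0.576 in the authors' deposited table). The other cytoplasmic actin, Act42A, had a mean signal of 629376 (Ph), 823476 (Sce) and 1000891 (Pc), against 411236 in Mock. It rose 2.43-fold with Pc (q = 0.035) in the authors' deposited table, and its ratios were 1.53 with Ph (q = 0.208) and 2.00 with Sce (q = 0.218). Act79B, an actin of adult tubular muscle, had a mean signal of 1287 (Ph), 6900 (Sce) and 7600 (Pc), against 5505 in Mock, and did not pass either. The authors' deposited table gives it ratios of 0.234 with Ph (q = 0.353), 1.25 with Sce (q = 0.546) and 1.38 with Pc (q = 0.596). Of the 6 actin genes of the fly, Act42A with Pc was thus the 1 call in total RNA, where 3.19% of all genes passed with Pc. With Ph and Sce 0 of the 6 passed, where 3.88% and 0.249% of all genes did. A single call among so few genes is no result about actins as a group.

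Beyond the 6 genes, 111 other genes of actin and muscle were on 6 lists, and 80 of them have a row in the table. Of these 80, 4 rose and 0 fell with Ph (5.0%, beside 3.88% of all genes), 0 passed with Sce (0.249% of all genes; 10, or 12.5%, at an unadjusted p under 0.05, beside 11.6% of all genes) and 3 rose and 0 fell with Pc (3.75%, beside 3.19% of all genes). Among the 4 with Ph is twi, which is listed through its Ph and Pc means, so its call is conditioned on being high there. The shares with Ph and Pc are near those of all genes, so the calls among these lists are no result about actin genes as a group. Their median log2 ratio was 0.28 (Ph), 0.17 (Sce) and 0.30 (Pc), and their median exonic length was 3862 bases, against 2140 for all genes.

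Besides Act42A, the listed genes other than the 6 that rose in total RNA were shot, cno, capu, form3 and twi. The spectraplakin gene shot, which links actin to microtubules, rose 3.25-fold with Ph (q = 0.049) and 2.23-fold with Pc (q = 0.009) in the authors' deposited table. Its mean signal was 738561 (Ph), 448598 (Sce) and 507786 (Pc), against 227493 in Mock. The gene cno, whose product canoe anchors actin at cell junctions, rose 3.08-fold with Ph (q = 0.025), and the formin gene capu, which nucleates actin filaments, rose 2.33-fold with Ph (q = 0.03), in the authors' deposited table. Another formin gene, form3, rose 6.12-fold with Pc (q = 0.002) in the authors' deposited table, and its ratio with Ph was 3.76 (q = 0.179). The mesoderm transcription factor gene twi rose 30.1-fold with Ph (q = 0.03) in the authors' deposited table. Its mean signal was 7107 with Ph, 24.98 with Sce and 1411 with Pc, against 236 in Mock, so its listing rests on Ph and Pc, and with Sce it stood below Mock at a ratio of 0.106 (q = 0.427) in the authors' deposited table.

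Within single lists, the 22 other crosslinking and anchoring genes held shot and cno as the calls with Ph (9.09%) and shot as the call with Pc (4.55%), beside 3.88% and 3.19% of all genes. The 31 nucleation and turnover genes held capu with Ph and form3 with Pc (3.23% in each), and 0 of the 31 fell in either. By the authors' q-value 0 of the 10 other sarcomere genes and 0 of the 14 other fusion genes passed in total RNA with Ph, where 3 (30.0%) and 5 (35.7%) of them had an unadjusted p under 0.05, beside 18.6% of all genes in either direction. The fusion receptor gene rst had a ratio of 0.296 with Ph in total RNA (q = 0.065) and fell in the nt.gene columns to a ratio of 0.371 (q = 0.048), per the authors' deposited table. It was the 1 call among the 80 genes in the nt.gene columns with Ph (1.25%), where 2.48% of all genes passed in either direction and 0.787% fell. With Sce 0 of the 80 passed in the nt.gene columns, where 0.118% of all genes did. At an unadjusted p under 0.05 there were 16 of 80 with Sce, or 20%, beside 9.9% of all genes.

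**Figure D5:**
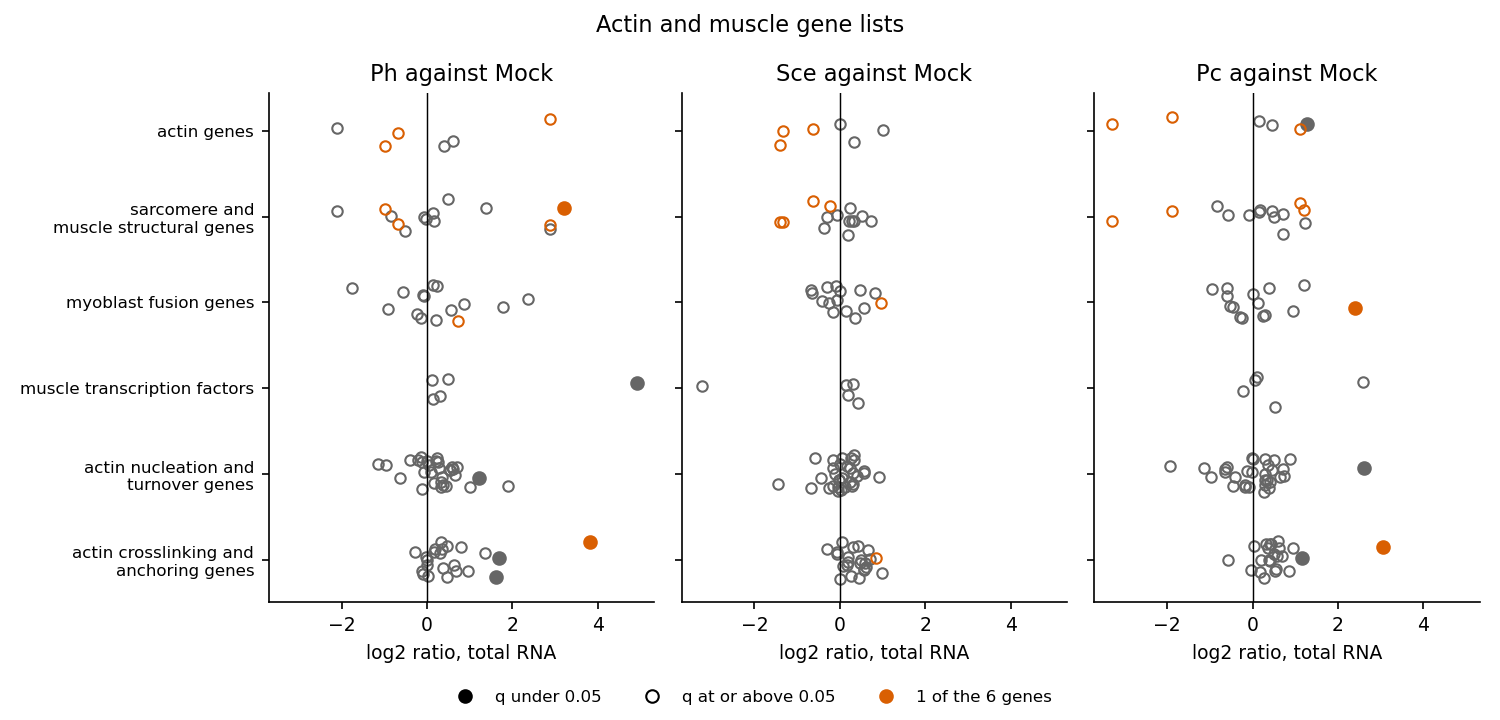
Log2 ratio to Mock in total RNA (horizontal axis) of each listed gene in the 6 lists (vertical axis) for the libraries labelled Ph, Sce and Pc. Filled points passed q under 0.05, open points did not, and orange marks the 6 genes; cher is the highest of the crosslinking list with Ph and Pc, and rols is the highest of the fusion list with Pc.

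Markers of cell types were read from the same table. Of the 34 sarcomere genes on the list 14 have a row, and the muscle myosin genes Mhc, Mlc1 and Mlc2, the troponin genes up and wupA and the tropomyosin gene Tm2 have none here. The 14 summed to 1154000 (Ph), 1089000 (Sce) and 1118000 (Pc), against 896800 in Mock. They include zormin, Act57B, Act87E and Act88F, so the sum is not independent of the 6 genes. With Ph, zormin (161323 against 17291 in Mock) and sls (113251 against 15469) weigh heavily in the difference from Mock. Zasp52 stood lower there, at 136778 against 244477. With Ph 7 of the 14, zormin and sls among them, stood above Mock and 7 below it. Of 13 muscle transcription factors 5 have a row, summing to 324800 (Ph), 349400 (Sce) and 266400 (Pc), against 273400 in Mock. Mef2 among them stood at 1.04 to 1.24 times Mock in the authors' deposited table (q of 0.313 or more). The 1 call of these 5 in total RNA was twi with Ph, at a ratio of 30.1 (q = 0.03) in the authors' deposited table. Its ratio with Pc was 5.97 (q = 0.123) there. The listing of twi rests on Ph and Pc, so both ratios are conditioned on being high there. The 6 glial markers with a row (of 9) summed to a mean signal of 597700 (Ph), 336000 (Sce) and 405800 (Pc), against 332900 in Mock. Of the 6, 3 stood above Mock with Ph and 3 below it, with a median log2 ratio of 0.06 beside 0.07 for all genes. Among them repo, the glial homeobox gene, rose 54.0-fold with Ph (q = 0.004) and 5.38-fold with Pc (q = 0.008) in the authors' deposited table, and nrv2 rose 2.10-fold with Ph (q = 0.015) in the authors' deposited table. The ratios with Ph of the others were 1.41 for loco, 0.774 for moody, 0.674 for Eaat1 and 0.644 for Gs2 in the authors' deposited table, none passing. The summed glial level had the order of groups that cher has, Ph above Pc above Sce above Mock, but its Sce and Mock sums lay close together and no spread stands beside them. The mean of repo was 138658 with Ph against 2567 in Mock, and that of nrv2 was 211190 against 100682, so both weigh heavily in the Ph sum. The part of the glial level in the values of cher was not tested. The 7 hemocyte markers with a row (of 10) summed to 260500 (Ph), 382400 (Sce) and 305900 (Pc), against 368500 in Mock, and the neuronal markers elav and futsch (2 of 10 with a row) to 25450 (Ph), 18940 (Sce) and 22720 (Pc), against 20770 in Mock. In bulk RNA, more cells of a type and more RNA per cell cannot be told apart.

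Genes of the most similar pattern were taken by the distance over the 3 log2 ratios to Mock, as a description over 3 values that share Mock. Genes known by a CG or CR number alone were left out, so nearest means nearest among the other genes. Nearest to cher were T48 at a distance of 0.43, with ratios of 11.1 (Ph), 2.05 (Sce) and 7.33 (Pc) in the authors' deposited table, and ko at 0.49. Nearest to zormin were the Enhancer of split gene HLHmbeta at 0.43 and the zinc finger gene bowl at 0.50, with Ph ratios of 7.65 and 6.66 in the authors' deposited table. HLHmbeta was also nearest to Act57B, at 0.23, followed by mthl9 at 0.30. Nearest to rols were the integrin gene scb at 0.60 and Atet at 0.63, which rose with Pc at ratios of 3.57 (q = 0.026) and 3.81 (q = 0.035) in the authors' deposited table. Nearest to Act87E was the dosage compensation RNA roX2 at 0.32, then Gpi1 at 0.46, and nearest to Act88F was roX1 at 0.69, then ksh at 0.96. The ratios of roX2 were 0.574 (Ph), 0.392 (Sce) and 0.329 (Pc) and those of roX1 0.432 (Ph), 0.317 (Sce) and 0.131 (Pc) in the authors' deposited table, none of them passing.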

How the data were processed

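The libraries were Ion Total RNA-seq v2 libraries of ribosome-depleted RNA, per the labels' protocols. Per the file headers, the authors deposited 1 mean signal per group, and for each comparison a ratio, with p-values and q-values to 3 decimals. The submitters' processing notes name bedtools and give it no role. The aligner, build, annotation, scaling, any division by length and the test were not stated. The column sums of the deposited means differed by at most 0.0209%. The deposited ratios equalled the quotients of these means, within 2% or 0.001. The table held 0 columns per library, and the 3 columns of nt.gene means, which no label describes, were left out.

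Calls used the authors' q-value under 0.05 over the whole table, the fallback in the design for a table of means; no p-value was computed here. Log2 ratios took a pseudocount of 1. List genes were matched by symbol or alias, exonic lengths (98.0% of genes) came from Ensembl release 115, and no coordinates are given because the build of the files is not stated. The named genes were the 6 genes, all actin genes, up to 4 called genes per list with Ph, the genes of a list called with Sce or Pc, and the 2 genes of nearest pattern; neighbours, markers and the nt.gene calls were added after their values were seen. The filamin-related gene jbug was not analysed here, and 1 list of the design is not reported here. The genes and lists were chosen with earlier results of these data known. Functions were checked on simulated data, in Python 3.11.15 with pandas 2.3.3.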

Additional observations from a re-analysis of the deposited data

How the results depend on the processing

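All 18 log2 ratios of the 6 genes in total RNA kept their direction when centred on the median of all genes and when centred on genes of like exonic length. The shifts were small, with medians over all genes of 0.07 (Ph), 0.06 (Sce) and 0.05 (Pc), and of 0.20, 0.24 and 0.25 in the longest class. The smallest log2 ratio above Mock was 0.717 (rols with Ph), so centring could not turn these ratios and is no check of direction. A pseudocount of 100 or 1000 can change the size of a ratio but never its direction, so it is no check of direction. Sizes moved for the lower genes: with a pseudocount of 1000, Act57B had 1.92 with Ph, 0.59 with Pc and -0.24 with Sce (2.89, 1.11 and -0.63 with a pseudocount of 1), and Act88F -0.32 (Ph), -0.57 (Sce) and -0.94 (Pc), against -0.68, -1.39 and -3.28. The counts of the 6 genes called higher were 1 (Ph), 1 (Pc) and 1 (nt.gene, Ph) at q under 0.01, the ones left being zormin, rols and zormin. At an unadjusted p under 0.05 they were 2 (Sce) and 1 (nt.gene, Sce), from 0, and 3 (Pc), from 2, zormin being the gene added with Pc. In the order Ph, Sce, Pc, nt.gene Ph and nt.gene Sce, all genes called numbered 296, 19, 243, 189 and 9; at an unadjusted p under 0.05 they were 1417, 882, 1100, 1257 and 755, at q under 0.1 699, 30, 412, 534 and 20, and at or above the median mean level 143, 10, 100, 110 and 4. At q under 0.01 they were 59 (Ph), 5 (Sce), 89 (Pc) and 16 (nt.gene, Ph), and with a Benjamini-Hochberg adjustment of the rounded p-values 23 (nt.gene, Sce). Of the 80 listed genes, 23, 10, 20, 23 and 16 had an unadjusted p under 0.05, 15 (Ph), 11 (Pc) and 10 (nt.gene, Ph) had q under 0.1, 0 (Ph) and 0 (nt.gene, Ph) had q under 0.01, 2 (Ph) were called at or above the median mean level, and 0 (nt.gene, Ph) by the Benjamini-Hochberg adjustment. No paired analysis was possible because the columns carry no values per library, and leaving out each replicate was not run for the same reason. Depth is unknown, so what it limits cannot be given.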
